A study of Mus musculus with 15 samples.

Results

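The comparison set smooth muscle taken from the mouse aorta against the undifferentiated stem cells from which the series made its own smooth muscle. It used 6 of the 15 samples, chosen by their labels alone: the 3 aortic samples numbered 1, 2 and 3 and the 3 stem cell samples numbered 3, 5 and 6, with every probe set of the array. The series followed mouse induced pluripotent stem cells (iPSC), which are reprogrammed cells able to form any tissue, as they were directed towards smooth muscle cells. Its other groups were Kdr+ mesodermal cells sorted on day 5 and Acta2hrGFP+ and Acta2hrGFP- cells sorted on day 13, with 3 samples in each of the 5 groups. Total RNA from each sample was labelled and hybridised to its own Affymetrix Mouse Gene 2.0 ST array. The aortic cells served the study as a positive control.

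The day 0 group was undifferentiated iPSC before any directed differentiation. The aortic group was primary aortic smooth muscle sorted as GFP+ for the Acta2hrGFP reporter, a green fluorescent protein read out for Acta2, the smooth muscle actin gene. The day 13 sorts carried the same reporter by their labels, and the day 0 labels do not name it. Mouse strain, age and sex, the clone of the iPSC line, the number of mice behind an aortic sample and whether aortic cells were grown in culture are not stated in the labels. The sort chose cells by activity of the Acta2 reporter, so other Acta2-expressing cells of the vessel could be among them. The submitters describe biological triplicates without saying what was independent. The p-values therefore measure the spread between samples, pooled within all groups of the series, and not only within the groups compared.

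Smooth muscle of a large artery contracts through smooth muscle actin and myosin, relaxes when nitric oxide raises cyclic GMP, and lays down the elastin and collagen that let the wall recoil. Its contractile genes are driven largely by serum response factor (SRF), which binds the CArG box, and by the SRF partner myocardin. Pluripotent stem cells instead depend on a transcription factor network around Nanog, Sox2 and Pou5f1, divide fast with a short G1 phase and rely heavily on glycolysis.

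Values are deposited log2 expression values, so a difference of 1 between samples means 2-fold. Sample values are given in the order 3, 5, 6 for day 0 and 1, 2, 3 for the aorta, and differences are aortic minus day 0, given ± the SE of the fit. The 3 day 0 samples correlated with each other at 0.987 to 0.991 over 25206 probe sets, the 3 aortic samples at 0.977 to 0.979, and samples of opposite groups at 0.799 to 0.809. Sample medians lay between 4.17 and 4.29. The deposited values carry no presence calls and no zero, so a difference from a gene near the bottom of the scale depends on where that bottom lies. One aortic sample stood apart in sex-linked genes: the Y-linked gene Ddx3y was at 1.91, 4.64 and 1.86 in the aortic samples, so that sample 2 alone exceeded the day 0 values of 1.97, 2.07 and 2.00. Aortic sample 1 stood apart in fibroblast markers and small nucleolar RNA genes, described beside those genes.

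Nearly 1 probe set in 2 differed between the groups. At an adjusted p under 0.05 (limma, Benjamini-Hochberg over all probe sets), 12023 of 25206 probe sets passed (47.7%), of which 5866 were higher in the aorta (23.3%) and 6157 lower (24.4%). Of these, 2826 were higher and 3525 lower by at least 2-fold (11.2% and 14.0%), 25.2% in all. The samples of the groups did not overlap at 13207 probe sets (52.4%). The median difference over all probe sets was 0.07. The balance of directions was not stable: after cyclic loess normalization 5921 were higher and 5737 lower, and without aortic sample 1 there were 6156 higher and 6026 lower, so that the direction with more genes turned in both.

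The 10 genes highest in the aorta relative to day 0 included matrix, adhesion and vessel wall genes. Ogn, which encodes the small leucine-rich proteoglycan osteoglycin, was at 3.05, 3.39 and 3.33 at day 0 and 11.30, 11.10 and 11.06 in the aorta. Itga8, the integrin alpha 8 chain of vascular smooth muscle, was at 3.02, 3.48 and 3.47 and 11.12, 10.89 and 11.09. Rgs5, a brake on G protein signals in mural cells, was at 3.54, 3.74 and 3.35 and 11.15, 11.10 and 10.88. The sample values of these genes were tightly grouped at both ends and far from overlapping. The differences were 7.89 ± 0.99, adjusted p = 5.13e-06 for Ogn, 7.71 ± 0.32 for Itga8 and 7.50 ± 0.17 for Rgs5. The SE pools the spread within all groups of the series, so that of Ogn is wide although its samples here lie close. The others were Cped1 (7.41), the matricellular protein Ccn3 (7.29), the matrix protein Sparcl1 (7.27), the nucleotide-degrading ectoenzyme Entpd1 (7.12), Mustn1 (7.05), Ecm2 (7.04) and the guanylate cyclase subunit Gucy1a1 (7.02).

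The 10 genes lowest in the aorta included genes of the stem cell state and of dividing cells. Tdgf1, the Nodal co-receptor Cripto, was at 10.71, 10.79 and 10.60 at day 0 and 2.58, 2.54 and 3.23 in the aorta, a difference of -7.92 ± 0.24, adjusted p = 4.43e-13. The pluripotency factors Sox2 (-6.54), Nanog (-6.38) and Nr0b1 (-6.40) were among them, as were topoisomerase Top2a (-6.74) and the X-linked gene Bex1 (-7.13). AU015836 (-7.23), the zinc finger genes Zfp981 (-6.85) and Zfp979 (-6.71) and the histone gene H2ac4 (-6.67) completed the 10. The zinc finger and histone genes have near-identical copies, so their probe sets may read relatives as well.

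**Figure D1:**
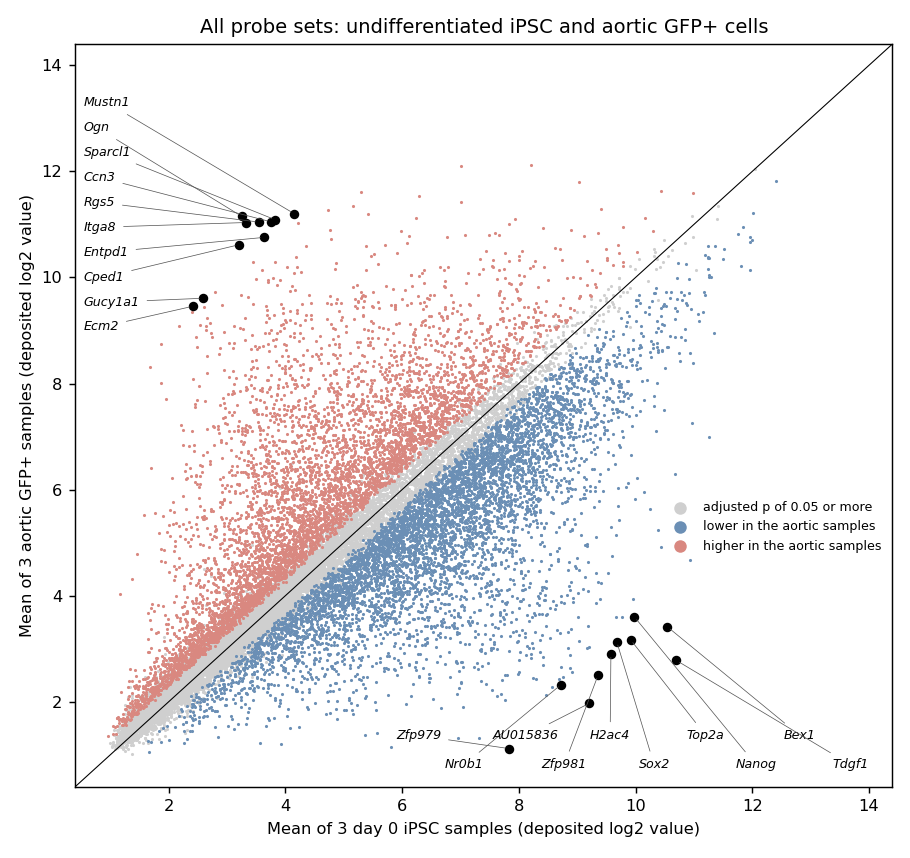
Mean deposited log2 value of each of 25206 probe sets in the 3 day 0 iPSC samples (x axis) and the 3 aortic GFP+ samples (y axis); the diagonal marks equal values, colours mark probe sets past an adjusted p of 0.05 (limma), and black points are the 10 genes with the highest and the 10 with the lowest difference. The labelled genes lie apart from the main cloud, from Tdgf1 at -7.92 to Ogn at 7.89.

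Contractile genes were higher in the aorta almost without exception. Acta2 was at 7.35, 6.94 and 6.74 in the day 0 samples and 12.11, 12.14 and 12.03 in the aortic samples, and since its reporter chose the aortic cells this is a check of the labels, with no test drawn from it. Of 29 measured contractile genes, 28 were higher in the aorta, with a median difference of 3.72, against 23.3% higher, 24.4% lower and a median of 0.07 over all probe sets. The 28 and the median include Acta2, the gene of the sort. All 28 differed by at least 2-fold. The exception was the RNA-binding protein gene Rbpms2, with means of 8.10 at day 0 and 8.21 in the aorta, a difference of 0.11 ± 0.23, adjusted p = 0.74.

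Myh11, the smooth muscle myosin heavy chain and the most specific marker of mature smooth muscle, was at 3.98, 4.17 and 4.52 at day 0 and 11.01, 10.97 and 11.11 in the aorta. Cnn1, which encodes the actin-binding protein calponin, was at 4.64, 4.81 and 4.85 and 10.92, 10.85 and 10.89. Both genes were high in each aortic sample and low in each day 0 sample, with differences of 6.80 ± 0.15, adjusted p = 3.02e-14 and 6.12 ± 0.25, adjusted p = 9.82e-12. The regulatory myosin light chain Myl9 differed by 6.32 ± 0.19, Mustn1 by 7.05 ± 0.11, the actin crosslinker Synpo2 by 6.05 ± 0.15 and the actin-bundling protein Tagln by 5.79 ± 0.16. The enteric smooth muscle actin Actg2 was higher by 5.08 ± 0.23 and the tropomyosin gene Tpm2 by 4.89 ± 0.15.

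The contractile genes did not stand alike in the stem cell-derived cells between the 2 ends. Tagln had a mean of 9.39 in the day 13 GFP+ cells and 11.20 in the aorta, whereas Myh11 had 4.64 and 11.03. The fit's second contrast, aortic minus day 13 GFP+, had 37.2% of probe sets past the threshold, 17.7% higher and 19.5% lower. In it Tagln differed by 1.81 (adjusted p = 3.03e-07), Myh11 by 6.38 (adjusted p = 9.18e-14) and Mustn1 by 6.63 (adjusted p = 4.71e-15). Acta2 differed by 0.77, but its reporter chose the cells of both groups, so no test was drawn from it. Myh11 and Mustn1 were thus near their day 0 level in day 13 GFP+ cells, with day 13 means of 4.64 and 4.57 against day 0 means of 4.22 and 4.15. Both contrasts share the aortic samples.

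**Figure D2:**
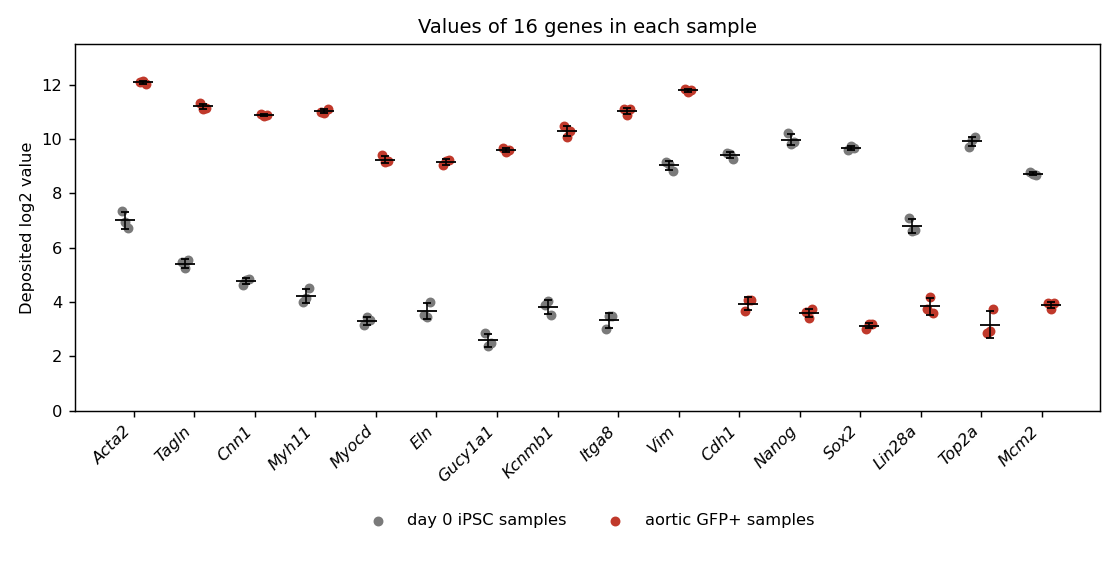
Deposited log2 values of 16 genes in each of the 3 day 0 iPSC samples (grey) and 3 aortic GFP+ samples (red), with the group mean (bar) and SD (whiskers). The first 10 genes are higher and the last 6 lower in the aortic samples, and for none of the 16 do the groups overlap.

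The CArG box, the SRF-binding motif of contractile genes, was searched in the RefSeq promoter table (build GRCm38.p6) over the 250 bases before each annotated start. It was searched by its name's standard pattern, CC then 6 bases each A or T then GG, which reads the same on both strands. Of 29 measured contractile genes 24 had a promoter in the table, and 3 of the 24 (12.5%) held an exact match: Myl9, Vcl and Ldb3. Over all 27025 genes in the table the share was 1.62%. The contractile genes were not alone in exceeding it. Of 19 immediate early and heat shock genes with a promoter in the table, 2 held a match, Egr2 and Zfp36. Of 19 transcription regulators of smooth muscle with a promoter there, 1 did, Srf. The shares of the lists were not tested against each other. Vcl encodes vinculin, which ties actin to the membrane. Srf itself held 2 matches. The windows of Myl9 and Vcl, the contractile genes with a match and a single promoter in the table, and of Srf are shown with the CArG boxes in capitals. They are at chr2:156775214-156775463 (plus strand), chr14:20929148-20929397 (plus strand) and chr17:46556163-46556412 (minus strand).
Myl9: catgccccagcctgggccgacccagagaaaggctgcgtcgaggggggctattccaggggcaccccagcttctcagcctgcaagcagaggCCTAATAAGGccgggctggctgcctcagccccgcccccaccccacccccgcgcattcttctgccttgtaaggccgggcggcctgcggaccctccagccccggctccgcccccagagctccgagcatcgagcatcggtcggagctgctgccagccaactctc
Vcl: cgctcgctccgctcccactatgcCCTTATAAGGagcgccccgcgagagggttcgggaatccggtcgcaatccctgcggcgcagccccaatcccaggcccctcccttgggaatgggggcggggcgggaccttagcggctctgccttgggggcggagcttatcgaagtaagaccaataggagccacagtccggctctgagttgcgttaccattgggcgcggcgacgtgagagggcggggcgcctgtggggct
Srf: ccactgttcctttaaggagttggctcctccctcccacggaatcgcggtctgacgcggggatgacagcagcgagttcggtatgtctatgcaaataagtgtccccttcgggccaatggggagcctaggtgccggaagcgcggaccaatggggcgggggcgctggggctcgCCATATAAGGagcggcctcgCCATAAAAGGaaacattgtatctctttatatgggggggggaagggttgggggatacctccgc
The box of Myl9 begins 161 bases before the start, that of Vcl 227 bases before it, and those of Srf 82 and 62 bases before it. Myl9 differed by 6.32 ± 0.19, Vcl by 2.77 ± 0.12, adjusted p = 2.37e-11 and Srf by 1.14 ± 0.15, adjusted p = 9.48e-06, and all 3 genes were higher in the aorta. A match is a description of the letters, and none in a window says nothing of SRF binding.

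Transcription regulators of smooth muscle and its mesenchyme were higher as well, 26 of 30, with a median difference of 2.39. Myocd, the gene of myocardin, was at 3.16, 3.44 and 3.34 at day 0 and 9.41, 9.14 and 9.18 in the aorta. The groups did not overlap, and the difference was 5.93 ± 0.15, adjusted p = 6.37e-14. Ebf1 differed by 5.29 ± 0.27, the forkhead factor Foxc1 by 5.26 ± 0.33, the SRF-related factor Mef2c by 4.73 ± 0.19, the homeobox factor Meox2 by 4.46 ± 0.73 and the Notch target Heyl by 4.58 ± 0.21. Myocardin-related factors that answer to actin dynamics differed less, Mrtfa by 1.12 ± 0.15 and Mrtfb by 0.73 ± 0.13. Among those that did not pass were Tcf21 (0.69 ± 0.33, adjusted p = 0.0979), Hey1 (0.37 ± 0.23, adjusted p = 0.211) and Nfatc4 (-0.08 ± 0.19, adjusted p = 0.755).

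Ion channels and calcium handling genes set the membrane potential and tone of the arterial wall, and 26 of 30 were higher in the aorta (median difference 1.96). Kcnmb1, the smooth muscle beta subunit of the large-conductance calcium-activated potassium channel, was at 3.89, 4.04 and 3.54 at day 0 and 10.46, 10.09 and 10.30 in the aorta, and its pore gene Kcnma1 at 3.57, 2.93 and 3.72 and 8.39, 7.89 and 8.14. Neither gene overlapped between the groups (6.46 ± 0.22, adjusted p = 1.40e-12 and 4.73 ± 0.34, adjusted p = 8.67e-09). The sulfonylurea receptor Abcc9 differed by 6.19 ± 0.15 and its potassium channel partner Kcnj8 by 3.37 ± 0.21. The potassium channel beta subunit Kcnab1 (6.01 ± 0.19), the calcium-activated chloride channel Ano1 (5.24 ± 0.16) and phospholamban, Pln (5.00 ± 0.21), were higher, as was the L-type calcium channel pore Cacna1c (4.33 ± 0.17). The inositol trisphosphate receptor genes went apart: Itpr1 was higher (1.37 ± 0.13) and Itpr3 lower (-2.49 ± 0.14, adjusted p = 4.31e-10), the only one of the list to be lower.

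Receptors for vasoactive signals were higher in 25 of 33 cases and lower in 3 (median difference 1.26). The endothelin receptor Ednra differed by 5.96 ± 0.35, the calcitonin receptor-like receptor Calcrl by 4.34 ± 0.16, the sphingosine phosphate receptor S1pr3 by 4.05 ± 0.23, the ATP-gated channel P2rx1 by 3.74 ± 0.14, the adrenergic receptor Adra1d by 3.67 ± 0.18 and the natriuretic peptide receptor Npr2 by 3.29 ± 0.14. Subtypes of one family could differ in direction, since S1pr2 was lower (-0.73 ± 0.19) beside S1pr3, a call that was lost after cyclic loess (-0.47). The lysophosphatidic acid receptor Lpar6 was lower as well (-1.10 ± 0.18). Day 13 GFP+ cells already held Ednra at a mean of 9.05 against 9.08 in the aorta (difference 0.03, adjusted p = 0.956), but Adra1d at 3.64 and P2rx1 at 3.71 against 7.10 and 7.41 in the aorta.

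The nitric oxide and cyclic GMP pathway, which relaxes smooth muscle, was higher at its receptor, kinase and phosphodiesterase steps. Gucy1a1 and Gucy1b1 encode the 2 chains of the nitric oxide-sensing guanylate cyclase. Gucy1a1 was at 2.86, 2.40 and 2.51 at day 0 and 9.67, 9.54 and 9.61 in the aorta, and Gucy1b1 at 4.04, 3.96 and 3.78 and 9.69, 9.43 and 9.38, with no overlap in either gene (7.02 ± 0.20, adjusted p = 3.13e-13 and 5.57 ± 0.21, adjusted p = 5.58e-12). The cyclic GMP-dependent kinase Prkg1 differed by 4.95 ± 0.15, its calcium release substrate Mrvi1 by 4.56 ± 0.12, Pde3a by 5.49 ± 0.15 and Pde5a by 4.77 ± 0.38. In all, 11 of 16 members were higher. The nitric oxide synthases did not pass in either direction: Nos1 differed by -0.18 ± 0.18, adjusted p = 0.445, Nos2 by 0.05 ± 0.17, adjusted p = 0.851 and Nos3 by -0.11 ± 0.17, adjusted p = 0.613.

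Regulators of G protein signalling (RGS), which shorten such signals, were higher in 8 of 20 cases and lower in 3, and 9 did not pass. Over all probe sets 23.3% were higher and 24.4% lower. Rgs5 (7.50 ± 0.17), Rgs4 (6.55 ± 0.26) and Rgs7bp (5.86 ± 0.24) were far above day 0, and Rgs2 was higher by 3.84 ± 0.33. Rgs12 (-1.27 ± 0.29) and Rgs19 (-0.74 ± 0.16) were lower. Rgs5 and Rgs7bp differed in when they appeared: the day 5 and day 13 GFP+ means were 9.42 and 9.21 for Rgs5 but 3.13 and 3.05 for Rgs7bp, whose mean at day 0 was 2.65.

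Elastic fibre genes were higher in 19 of 24 cases, with a median difference of 2.74. Eln, the gene of elastin, was at 3.54, 3.45 and 4.01 at day 0 and 9.04, 9.21 and 9.25 in the aorta (5.50 ± 0.36, adjusted p = 2.24e-09), with every aortic sample far above every day 0 sample. The assembly proteins Fbln5 (6.26 ± 0.42) and Mfap4 (6.24 ± 0.34), fibrillin 1 (Fbn1, 4.72 ± 0.14), the TGF-beta binding protein Ltbp1 (4.56 ± 0.25) and Mfap5 (4.35 ± 0.20) were higher. Fibrillin 2, the fetal fibrillin, did not differ past the threshold (Fbn2, -0.08 ± 0.17, adjusted p = 0.732), although its day 13 GFP+ mean was 9.40 against 3.45 at day 0 and 3.37 in the aorta. The aorta differed from day 13 GFP+ cells by -6.04 at Fbn2 (adjusted p = 4.72e-13).

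Of 43 collagen genes 24 were higher (median difference 0.68). The fibrillar chains Col3a1 (5.52 ± 0.28), Col1a2 (4.34 ± 0.41) and Col1a1 (3.39 ± 0.34) were higher, as were Col14a1 (4.57 ± 0.30), Col15a1 (4.39 ± 0.23) and Col6a2 (3.46 ± 0.18). Basement membrane collagen was higher in all 6 chains, from Col4a4 at 0.80 and Col4a3 at 0.82 through Col4a2 at 2.55 and Col4a1 at 2.87 to Col4a5 at 2.99 and Col4a6 at 3.10. Cartilage chains were not: Col2a1 differed by -0.66 ± 0.33, adjusted p = 0.115, and Col9a3, the only collagen gene lower, by -0.44 ± 0.17, adjusted p = 0.0457, a call lost when any of 5 of the 6 samples was left out (differences of -0.45 to -0.35 without an aortic sample and -0.48 to -0.42 without a day 0 sample).

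Proteoglycan and matricellular genes were higher in 30 of 37 cases (median difference 2.52). Beside Ogn, Ccn3 and Sparcl1 the largest were the leucine-rich proteoglycans Aspn (6.93 ± 0.84), Dcn, the gene of decorin (6.54 ± 0.60), and Prelp (6.53 ± 0.21). Spp1, the gene of osteopontin, went the other way, at 9.29, 9.42 and 9.37 at day 0 and 3.68, 4.58 and 4.52 in the aorta, a difference of -5.10 ± 0.28, adjusted p = 3.77e-10. Ccn3 was close to its day 0 mean of 3.76 in day 13 GFP+ cells (4.04), whereas Ogn had reached 9.10 there.

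Of 34 adhesion receptor and laminin genes 19 were higher (median difference 1.34) and 9 lower, and the share lower was near the 24.4% of all probe sets. Itga6, the laminin-binding integrin chain of stem and epithelial cells, was at 8.29, 8.36 and 8.39 at day 0 and 3.80, 3.41 and 4.29 in the aorta, opposite to Itga8. Its difference was -4.51 ± 0.23, adjusted p = 1.52e-10, while Itga1 (5.82 ± 0.29), the muscle laminin receptor Itga7 (4.10 ± 0.51) and the Itga8 ligand Npnt (4.92 ± 0.19) were higher. The laminin chains split by subunit, with Lama2 (4.32 ± 0.27), Lama4 (4.59 ± 0.26) and Lamb2 (4.65 ± 0.14) higher and Lama1 (-2.96 ± 0.16) and Lamb1 (-2.44 ± 0.21) lower. Lama5 (0.27 ± 0.16, adjusted p = 0.182) and Lamc1 (0.23 ± 0.13, adjusted p = 0.177) did not pass, but both were higher after cyclic loess (0.60 and 0.76). The nidogens, which link laminin to collagen, were both lower, with differences of -3.74 ± 0.16 for Nid2 and -0.92 ± 0.22 for Nid1, the latter not past the threshold after cyclic loess (-0.50).

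Cdh1, the gene of E-cadherin, was at 9.48, 9.45 and 9.27 at day 0 and 3.66, 4.09 and 4.08 in the aorta (-5.46 ± 0.19, adjusted p = 1.57e-12), with no overlap. Epcam (-4.80 ± 0.24), the tight junction gene Cldn4 (-4.58 ± 0.16) and the desmosomal cadherin Dsg2 (-4.55 ± 0.14) were lower, as were 17 of 26 cadherin and junction genes in all. The 5 higher were Cdh13, which encodes T-cadherin (4.86 ± 0.16), Cdh6 (3.41 ± 0.21), Dsp (2.61 ± 0.21), Cdh5 (2.18 ± 0.33) and Cdh11 (2.09 ± 0.35). Cdh2, the gene of N-cadherin, did not pass (0.26 ± 0.24, adjusted p = 0.411), except without aortic sample 3 (0.63) or after cyclic loess (0.69), although day 13 GFP+ cells had a mean of 9.12 against 5.26 at day 0 and 5.52 in the aorta.

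Caveolae are the membrane pits of smooth muscle, and their coat genes were higher: Ehd2 (5.19 ± 0.20), Cav2 (4.56 ± 0.15), Cav1 (4.42 ± 0.19), Cavin3 (4.05 ± 0.12) and Cavin1 (3.59 ± 0.14). Together with the connexins 13 of 25 were higher and 5 lower, the latter share near the 24.4% of all probe sets. Among connexins the vascular gene Gja4 was higher (3.89 ± 0.14) and the epithelial gene Gjb5 (-2.43 ± 0.14) lower, as was the coat gene Cavin4 (-1.90 ± 0.20). Genes of the mesenchymal transition were higher in 14 of 17 cases, led by the Cdh1 repressor Zeb2 (4.22 ± 0.19), with S100a4 (4.03 ± 0.23), Tgfbi (3.78 ± 0.33), Fap (3.71 ± 0.25), Snai2 (3.23 ± 0.41) and Zeb1 (3.11 ± 0.18). Pdpn was lower (-2.40 ± 0.17).

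Naive pluripotency genes were lower in the aorta in 17 of 19 cases, and general pluripotency genes in 23 of 25. The median differences were -3.79 and -3.96. Nanog was at 10.23, 9.83 and 9.88 at day 0 and 3.64, 3.43 and 3.74 in the aorta, and Sox2 at 9.61, 9.76 and 9.66 and 3.03, 3.18 and 3.20. No aortic sample came near a day 0 sample in either gene (-6.38 ± 0.19, adjusted p = 3.34e-13 and -6.54 ± 0.24, adjusted p = 3.46e-12). Nr0b1 (-6.40 ± 0.13), the ubiquitin ligase subunit Fbxo15 (-5.55 ± 0.15), Tfcp2l1 (-5.20 ± 0.18), the growth factor Fgf4 (-4.78 ± 0.15) and Tcl1 (-4.71 ± 0.15) were lower, as were Dppa4 (-5.45 ± 0.20), Utf1 (-5.44 ± 0.20), Dnmt3l (-5.40 ± 0.13) and Sall4 (-5.18 ± 0.17). Pou5f1, the gene of Oct4, was lower as well (-2.28 ± 0.18), with a day 0 mean of 6.57.

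Klf2 and Klf4 stood outside that pattern. Klf4, a reprogramming factor that is also made in vessel walls, was at 8.73, 8.50 and 8.44 at day 0 and 9.16, 8.77 and 8.55 in the aorta. These ranges overlapped and the difference of 0.27 did not pass (adjusted p = 0.174, 95% interval -0.06 to 0.61), although it passed after cyclic loess (0.53), while the day 13 GFP+ mean was 5.31. Klf2 was higher in the aorta, at 6.85, 7.12 and 6.97 and 8.84, 8.70 and 8.66 (1.75 ± 0.13, adjusted p = 1.15e-08), with a day 13 GFP+ mean of 4.77. Klf5, in contrast, was lower (-3.79 ± 0.17). The only general pluripotency gene higher in the aorta was the tetraspanin gene Cd9 (0.69 ± 0.16). Immediate early genes were higher in the same aortic samples, as given with the cell type markers, and their part in the Klf2 and Klf4 levels was not tested.

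Germline and meiosis genes, which naive stem cells transcribe at low methylation, were lower in 23 of 26 cases. The piRNA pathway gene Tdrd12 (-5.32 ± 0.13), the synaptonemal complex gene Sycp1 (-4.49 ± 0.14), Rnf17 (-4.26 ± 0.18), Dazl (-3.64 ± 0.18), Mael (-3.41 ± 0.12) and Tex19.1 (-3.11 ± 0.20) had the largest differences. Fetal RNA-binding protein genes were lower in 9 of 10 cases. The let-7 blocker Lin28a was at 7.10, 6.63 and 6.65 at day 0 and 3.74, 4.19 and 3.58 in the aorta (-2.95 ± 0.20, adjusted p = 3.91e-09). The mRNA-binding proteins Igf2bp2 (-5.05 ± 0.15) and Igf2bp1 (-4.77 ± 0.20) were lower at the aortic end, with day 13 GFP+ means of 8.86 and 7.90 beside day 0 means of 8.92 and 8.89 and differences between the aorta and day 13 GFP+ of -4.98 (adjusted p = 1.10e-12) and -3.79 (adjusted p = 6.62e-10).

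Chromatin regulators of the stem cell state were mostly lower. Of 21 DNA methylation genes 12 were lower and 6 higher, the latter share near the 23.3% of all probe sets. The de novo enzyme Dnmt3b (-3.26 ± 0.16) and its partner Dnmt3l (-5.40 ± 0.13) were lower, whereas Dnmt3a did not pass (-0.34 ± 0.16, adjusted p = 0.0997). The maintenance genes Uhrf1 (-4.31 ± 0.23) and Dnmt1 (-2.56 ± 0.13) were lower. The demethylating dioxygenases went apart by member: Tet1 (-3.61 ± 0.16) and Tet2 (-1.79 ± 0.15) were lower, and Tet3 was higher (1.20 ± 0.16). The imprint guardian Zfp57 was lower (-2.95 ± 0.30), and Gadd45g (3.37 ± 0.23), Mbd2 (2.06 ± 0.13) and Gadd45b (1.94 ± 0.28) were higher.

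Polycomb subunits, which keep developmental genes silent, were lower in 21 of 32 cases and higher in 8, the latter share near the 23.3% of all probe sets. The catalytic methyltransferase Ezh2 was at 8.56, 8.77 and 8.97 at day 0 and 5.60, 5.50 and 5.10 in the aorta (-3.37 ± 0.14, adjusted p = 1.35e-11), and its relative Ezh1 did not pass (-0.03 ± 0.15, adjusted p = 0.89). Mtf2 (-3.46 ± 0.25), Phc1 (-3.23 ± 0.13), Pcgf6 (-3.10 ± 0.21), Jarid2 (-2.96 ± 0.19) and Suz12 (-2.51 ± 0.21) were lower. The chromobox reader Cbx7 was lower as well (-1.71 ± 0.17). Phf1 (1.73 ± 0.13) and Phc3 (1.63 ± 0.20) were higher.

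Splicing regulators differed in both directions, with 9 of 30 higher and 12 lower, against 23.3% and 24.4% of all probe sets (median difference -0.08). Mbnl1, which promotes adult splice forms in muscle, was at 6.51, 6.30 and 6.20 at day 0 and 10.15, 9.92 and 10.20 in the aorta (3.75 ± 0.20, adjusted p = 2.66e-10). Celf2 (3.24 ± 0.13), Rbm24 (3.01 ± 0.21) and Khdrbs3 (1.84 ± 0.12) were higher. The epithelial splicing factor Esrp1 (-3.79 ± 0.12) and the Hu protein Elavl3 (-1.88 ± 0.22) were lower.

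Genes of DNA replication and of mitosis were lower in the aorta without exception, 33 of 33 and 30 of 30, each by at least 2-fold. The median differences were -3.15 and -4.58. Top2a was at 9.72, 9.96 and 10.06 at day 0 and 2.85, 2.94 and 3.73 in the aorta, and the replicative helicase subunit Mcm2 at 8.79, 8.73 and 8.67 and 3.95, 3.75 and 3.97. Aortic sample 3 had the highest aortic value of Top2a and was still far below day 0 (-6.74 ± 0.21, adjusted p = 5.30e-13; Mcm2 -4.84 ± 0.14, adjusted p = 3.13e-13). The spindle midzone protein Prc1 (-6.28 ± 0.13), the checkpoint kinase Bub1 (-6.24 ± 0.22), Kif23 (-6.00 ± 0.15), Ndc80 (-5.56 ± 0.21) and cyclin A2 (Ccna2, -5.45 ± 0.16) were next among mitosis genes, and ribonucleotide reductase Rrm2 (-5.09 ± 0.15), Pole (-4.88 ± 0.17), Mcm7 (-4.84 ± 0.15), Mcm3 (-4.55 ± 0.20) and Mcm5 (-4.41 ± 0.15) among replication genes. Day 13 GFP+ cells kept Top2a at 8.04 and Prc1 at 7.08, with day 0 means of 9.92 and 8.75, and the aorta differed from day 13 GFP+ by -4.87 (adjusted p = 5.17e-11) and -4.61 (adjusted p = 5.43e-13). In bulk RNA, fewer cells of a kind and less RNA in each such cell cannot be told apart.

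Cyclins and inhibitors of the cell cycle were mixed, with 9 of 30 higher and 14 lower, against 23.3% and 24.4% of all probe sets. Cyclin E1, which drives entry into S phase in stem cells, was lower (Ccne1, -3.98 ± 0.17), with E2f1 (-2.59 ± 0.25) and Cdk4 (-2.26 ± 0.16). The D cyclins went apart: Ccnd2 was higher by 3.27 ± 0.23, and Ccnd1 (-1.58 ± 0.20) and Ccnd3 (-1.14 ± 0.16) were lower. Gas6 (2.71 ± 0.18) and Btg2 (2.37 ± 0.13), genes of resting cells, were higher. The inhibitor p27 was higher (Cdkn1b, 1.35 ± 0.17), while p21 did not pass (Cdkn1a, -0.17 ± 0.15, adjusted p = 0.374). Its direction turned after cyclic loess, where it was higher past the threshold (0.47), and it was lower past the threshold without aortic sample 2 (-0.36).

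Ribosome biogenesis genes were lower in 26 of 27 cases (median difference -2.18). Fibrillarin, the methyltransferase of small nucleolar particles, was at 7.69, 8.03 and 8.02 at day 0 and 4.16, 3.35 and 5.17 in the aorta (Fbl, -3.68 ± 0.37, adjusted p = 4.45e-07). Dkc1 (-3.25 ± 0.15), Nhp2 (-2.91 ± 0.11) and the RNA polymerase I subunit Polr1b (-2.80 ± 0.26) were lower. The Myc family was split, since Mycl (-3.38 ± 0.27) and Mycn (-3.03 ± 0.34) were lower while Myc was at 7.72, 7.26 and 7.27 and 7.96, 8.71 and 7.46, overlapping between the groups and higher by 0.63 ± 0.23, adjusted p = 0.0346. That call was lost without aortic sample 1 (0.67) or 2 (0.29), day 0 sample 5 (0.55) or 6 (0.55), and after median centring (0.57).

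Glycolysis and glucose uptake genes were lower in 16 of 24 cases and higher in 4 (median difference -1.61). The glucose transporters showed a change of member. Slc2a3, the high-affinity transporter Glut3, was at 11.01, 10.97 and 10.83 at day 0 and 4.61, 4.92 and 4.47 in the aorta, and the widespread transporter Slc2a1 was lower as well (-2.37 ± 0.19). Slc2a4, the insulin-responsive Glut4 of muscle and fat, was at 4.11, 4.30 and 3.99 and 6.69, 6.80 and 6.32, in the opposite direction (-6.27 ± 0.19, adjusted p = 5.83e-13 for Slc2a3 and 2.47 ± 0.20, adjusted p = 4.16e-08 for Slc2a4). The enzymes Pgam1 (-3.95 ± 0.44) and Pfkl (-3.00 ± 0.37), the lactate transporter Slc16a1 (-3.03 ± 0.16) and the pyruvate dehydrogenase kinase Pdk1 (-3.39 ± 0.21) were lower, whereas the related kinase Pdk2 was higher (2.37 ± 0.22). Mitochondrial isoform genes were higher in 7 and lower in 6 of 25 cases, shares near those of all probe sets, although 13 were higher after cyclic loess. The mitochondrial coactivator Ppargc1a was higher (3.59 ± 0.22) and the testis-type subunit Cox6b2 lower (-2.83 ± 0.19).

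Clock genes were higher in 14 of 19 cases and lower in 2. The clock factor Npas2 (3.62 ± 0.32), the repressor Nr1d1 (3.40 ± 0.21), Per2 (3.15 ± 0.23) and the output factors Dbp (2.70 ± 0.34) and Hlf (2.36 ± 0.24) were higher, and Cry1 (-2.04 ± 0.15) and Ciart (-0.90 ± 0.14) lower. Nr1d1 was at 6.38, 7.15 and 6.83 at day 0 and 10.34, 10.35 and 9.88 in the aorta, without overlap. The core factor Arntl did not pass (-0.23 ± 0.29, adjusted p = 0.547), but was lower without aortic sample 3 (-0.71). The labels do not give the hour of collection, and hour and group cannot be told apart.

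Antioxidant genes differed by member, 14 of 30 higher and 7 lower, the latter share near the 24.4% of all probe sets. Sod3, the superoxide dismutase secreted into the vessel wall, was at 3.45, 3.27 and 3.80 at day 0 and 10.10, 9.90 and 9.91 in the aorta (6.46 ± 0.15, adjusted p = 4.24e-14), while the mitochondrial Sod2 (-0.83 ± 0.15) and cytosolic Sod1 (-1.38 ± 0.40) were lower, the latter not past the threshold without aortic sample 3 (-0.88). Cyp1b1 (3.58 ± 0.16) and the glutathione enzymes Gstt1 (3.39 ± 0.16), Gpx8 (3.24 ± 0.17) and Gstm2 (3.19 ± 0.20) were higher, and Gsta4 (-3.74 ± 0.25), heme oxygenase Hmox1 (-3.03 ± 0.29) and peroxiredoxin Prdx1 (-2.15 ± 0.24) lower. The day 13 GFP+ mean of Sod3 was 3.62, near its day 0 mean of 3.51.

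Complement genes were higher in 13 of 23 cases and lower in 1. The inhibitor Serping1 had means of 4.17 at day 0 and 9.76 in the aorta (5.59 ± 0.22, adjusted p = 8.88e-12). Component C3 (5.54 ± 0.33), the protease C1s1 (5.10 ± 0.29) and Cd59a (3.98 ± 0.19) were higher. C7 was at 5.72, 8.98 and 7.94 in the aortic samples, so that sample 1 lay below the other two, and at 3.06, 2.94 and 2.91 at day 0 (difference 4.58 ± 0.51, adjusted p = 1.23e-06, 5.49 without aortic sample 1 and 3.86 without aortic sample 2). Interferon and antigen presentation genes were higher in 17 of 31 cases, led by Ifi27 (5.10 ± 0.15), Irf1 (3.33 ± 0.26), Gbp2 (3.10 ± 0.24), the class I gene H2-D1 (2.66 ± 0.23) and B2m (1.84 ± 0.17). Bst2 was lower (-2.72 ± 0.26), as was Ifitm1 (-0.58 ± 0.16).

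The BMP and TGF-beta pathway, which drives smooth muscle differentiation, was higher in 29 of 35 members and lower in 3 (median difference 1.86). Among ligands Tgfb3 (4.89 ± 0.35), Tgfb2 (4.86 ± 0.24), Gdf10 (4.47 ± 0.28) and Bmp2 (4.44 ± 0.20) were higher. All 3 TGF-beta receptors were higher, Tgfbr2 by 3.61 ± 0.17, Tgfbr3 by 2.91 ± 0.17 and Tgfbr1 by 2.20 ± 0.18, and the activin receptor Acvr2b was lower (-1.81 ± 0.22). Of the signal transducers Smad3 was higher (0.93 ± 0.16) and Smad2 lower (-0.52 ± 0.13, and not past the threshold at -0.17 after cyclic loess). The BMP target Id3 was higher (4.21 ± 0.17), and the activin chain Inhbb lower (-0.67 ± 0.16).

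Notch genes were higher in 9 of 20 cases and lower in 5, the latter share near the 24.4% of all probe sets. Receptors and ligands each went both ways. Notch3, the receptor of arterial smooth muscle, was at 5.61, 5.60 and 5.66 at day 0 and 8.53, 8.46 and 7.74 in the aorta, higher by 2.62 ± 0.20, adjusted p = 1.34e-08. Notch2 (2.23 ± 0.13) and the ligand Jag1 (1.88 ± 0.12) were higher, and Notch1 (-0.55 ± 0.14, not past the threshold at -0.26 after cyclic loess), Jag2 (-1.65 ± 0.17) and Dll1 (-1.23 ± 0.20) lower. The targets Heyl (4.58 ± 0.21) and Hey2 (4.11 ± 0.20) and the coactivator Maml2 (3.85 ± 0.19) were higher, and the fringe gene Mfng lower (-1.67 ± 0.16).

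Growth factor genes of the PDGF, FGF and IGF families were higher in 19 of 34 cases and lower in 8, or 5 without day 0 sample 3 or aortic sample 3. The share lower was near the 24.4% of all probe sets. The PDGF receptor beta gene, Pdgfrb, was higher by 5.09 ± 0.15 and the ligand Pdgfd by 5.30 ± 0.31. The IGF-binding proteins changed member, with Igfbp5 (5.47 ± 0.22) and Igfbp7 (5.24 ± 0.18) higher and Igfbp2 lower (-4.28 ± 0.24). Fgf4 (-4.78 ± 0.15) and Fgf15 (-2.02 ± 0.30) were lower. Wnt pathway genes were higher in 17 of 39 cases and lower in 5, or 3 without day 0 sample 3 or aortic sample 1. The secreted antagonists Frzb (6.13 ± 0.19), Sfrp4 (3.98 ± 0.24), Dkk3 (3.88 ± 0.33) and Sfrp2 (3.32 ± 0.18) and the receptors Fzd2 (3.34 ± 0.19) and Fzd8 (3.24 ± 0.34) were higher, and Sfrp1 (-2.29 ± 0.23), Tcf7 (-2.67 ± 0.16) and Fzd10 (-0.56 ± 0.14) lower.

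**Figure D3:**
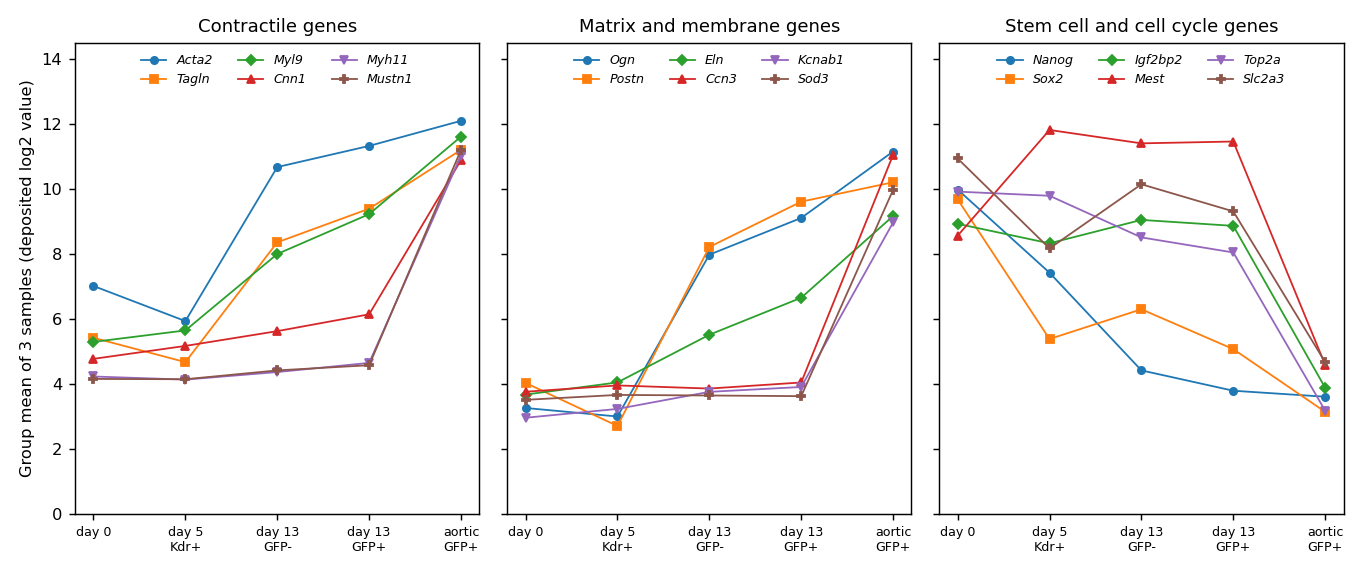
Group means (3 samples each, deposited log2 values) of 18 genes in the 5 groups of the series; lines join the means of a gene and mark no time course between the day 13 sorts. Myh11, Mustn1, Ccn3, Kcnab1 and Sod3 lie within 1 log2 unit of their day 0 mean in the iPSC-derived groups and are high in the aorta, while Igf2bp2, Mest, Top2a and Slc2a3 have their lowest mean in the aorta.

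Hox genes, which record position along the body axis, were higher in the anterior and middle paralog groups and not in the posterior ones. Of paralogs 1 to 4, 8 of 12 were higher. Of paralogs 5 to 9, 9 of 15 were higher. Of paralogs 10 to 13, 1 of 12 was higher, Hoxc10 (0.43 ± 0.15, a call lost without day 0 sample 3 at 0.44, day 0 sample 6 at 0.40, aortic sample 1 at 0.41 and aortic sample 3 at 0.41), and 1 lower, Hoxc13 (-0.70 ± 0.15). The largest differences were those of Hoxa2, at 1.99, 2.22 and 2.05 at day 0 and 5.65, 5.31 and 5.12 in the aorta (3.28 ± 0.19, adjusted p = 4.88e-10), Hoxa3 (3.16 ± 0.19), Hoxa5 (2.87 ± 0.24) and Hoxb6 (2.70 ± 0.20). The largest positive differences in the Hoxd cluster, Hoxd3 (0.39 ± 0.16, adjusted p = 0.0513) and Hoxd10 (0.37 ± 0.19, adjusted p = 0.137), did not pass, but Hoxd3 did without day 0 sample 6 (0.49) or aortic sample 3 (0.54). Day 13 GFP+ cells had another code: their means were 2.50 for Hoxa2 and 3.33 for Hoxa5, near day 0, but 5.52 for Hoxa13 and 5.69 for Hoxd13, whose aortic means were 3.65 and 3.07. The aorta differed from day 13 GFP+ by 2.86 at Hoxa2 (adjusted p = 6.67e-09) and -2.62 at Hoxd13 (adjusted p = 1.60e-07).

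**Figure D4:**
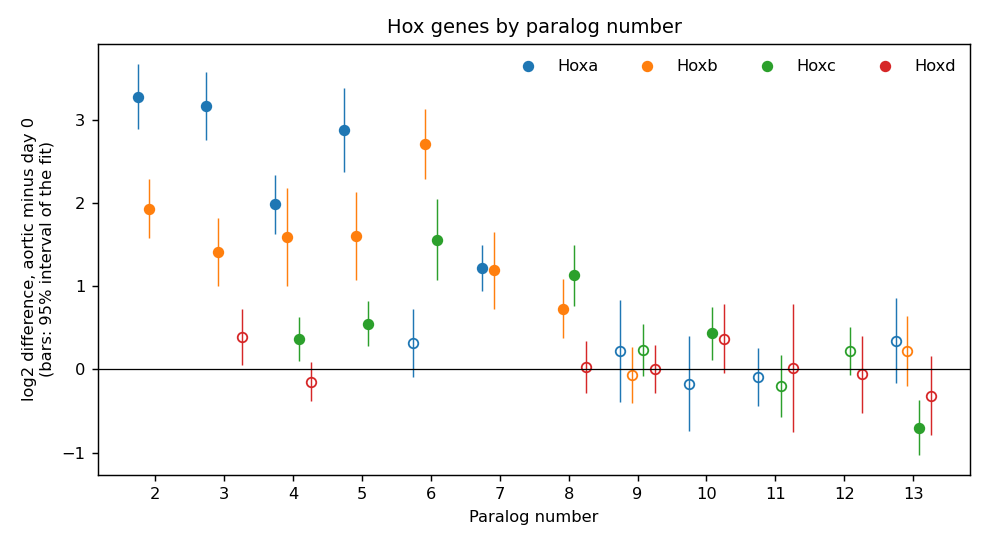
log2 difference, aortic minus day 0, of the measured Hox genes of paralogs 2 to 13 by paralog number (x axis), coloured by cluster, with 95% intervals of the limma fit; filled points passed an adjusted p of 0.05 and open points did not. The largest are Hoxa2 at 3.28 and Hoxa3 at 3.16.

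MicroRNA genes were measured through probe sets that read the hairpin or its host transcript, and mature forms were not measured apart. Of 50 measured microRNA genes of both lists 42 had a mature sequence in the RefSeq table (build GRCm38.p6). Some of these mature sequences, from genes with large differences, are shown with the seed, bases 2 to 8, in capitals. Mir23b and Mir145a, which also differed widely, are not among the genes shown. Sequences of the stem cell list come first.
miR-290a-3p: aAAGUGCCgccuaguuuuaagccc
miR-20a-5p: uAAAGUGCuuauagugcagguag
miR-18a-5p: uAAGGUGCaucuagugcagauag
miR-19a-3p: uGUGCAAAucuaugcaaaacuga
miR-27b-3p: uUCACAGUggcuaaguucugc
miR-24-3p: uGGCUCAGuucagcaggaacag
let-7f-5p: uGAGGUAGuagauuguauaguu
let-7d-5p: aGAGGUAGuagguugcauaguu
By seed, let-7f and let-7d form a group and each of the others has its own. Mir290a, first of the cluster that marks mouse pluripotent cells, was at 8.37, 8.48 and 8.05 at day 0 and 2.55, 2.05 and 2.71 in the aorta. Every aortic sample lay far below every day 0 sample (-5.86 ± 0.25, adjusted p = 1.62e-11). The cluster on chromosome 14 that holds Mir18, Mir19a and Mir20a was lower at its host gene Mir17hg (-1.91 ± 0.23), Mir18 (-2.19 ± 0.30), Mir19a (-1.93 ± 0.33) and Mir20a (-1.87 ± 0.35). In the stem cell list 8 of 14 genes were lower and 1 higher, Mir106a (0.66 ± 0.20), a call lost without day 0 sample 5 (0.59) or aortic sample 2 (0.49).

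The smooth muscle list had 15 of 36 genes higher and 3 lower. The neighbours Mir23b, Mir27b and Mir24-1 on chromosome 13 were higher together, Mir27b at 3.84, 4.18 and 3.98 at day 0 and 8.05, 8.06 and 8.71 in the aorta (4.28 ± 0.27, adjusted p = 1.48e-09), Mir23b by 3.44 ± 0.27 and Mir24-1 by 2.88 ± 0.32. Mir24-2, which yields the same mature miR-24-3p from another locus, was higher by 1.87 ± 0.31. The smooth muscle pair Mir145a (3.33 ± 0.37) and Mir143 (1.73 ± 0.25) was higher. The let-7 genes did not move together: Mirlet7f-1 was lower, with aortic values of 1.65, 1.44 and 1.43 and a difference of -2.57 ± 0.27, adjusted p = 6.30e-07, and Mirlet7d was lower as well (-1.83 ± 0.27), while Mirlet7b (1.04 ± 0.23), Mirlet7c-2 (0.87 ± 0.21) and Mirlet7e (0.78 ± 0.24) were higher. Mirlet7a-1 did not pass (-0.06 ± 0.27, adjusted p = 0.884). Several let-7 genes lay near the bottom of the scale at day 0.

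Imprinted genes, expressed from a single parental copy and mostly fetal, were higher in 8 and lower in 11 of 37 cases, shares near those of all probe sets. Mest was at 9.12, 8.42 and 8.13 at day 0 and 4.16, 4.67 and 4.91 in the aorta (-3.98 ± 0.23, adjusted p = 5.79e-10), and the growth-restraining RNA H19 at 6.76, 7.47 and 7.44 and 4.13, 3.48 and 4.27 (-3.26 ± 0.30, adjusted p = 1.21e-07), without overlap. Peg10 (-2.57 ± 0.22) and Peg3 (-2.50 ± 0.14) were lower. Day 13 GFP+ cells had means of 11.46 for Mest and 10.60 for H19, above both ends, and the aorta differed from them by -6.88 (adjusted p = 3.35e-12) and -6.64 (adjusted p = 9.10e-11). Dcn (6.54 ± 0.60), Sgce (2.12 ± 0.11) and Asb4 (1.57 ± 0.22) were higher in the aorta. Igf2 had means of 6.03 at day 0, 10.96 in day 13 GFP+ cells and 6.67 in the aorta.

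Xist, the RNA that silences an X chromosome in female cells, was at 5.70, 5.46 and 5.30 at day 0 and 9.49, 9.11 and 9.77 in the aorta (3.97 ± 0.33, adjusted p = 4.95e-08), and its antisense partner Tsix at 4.95, 4.06 and 3.87 and 2.53, 2.59 and 3.15 (-1.54 ± 0.23, adjusted p = 3.30e-05). Without strand-specific probes described, signals of overlapping antisense genes are uncertain. The Y-linked genes Ddx3y, Eif2s3y (1.51, 3.91 and 1.97 in the aorta), Uty (1.63, 3.63 and 2.13) and Kdm5d (1.81, 3.16 and 2.07) were raised in aortic sample 2 only, which held Xist at 9.11. Without that sample the differences of Ddx3y and Xist were -0.13 and 4.14. X-linked genes were lower in 301 of 986 cases and higher in 171, against 5625 lower and 5422 higher of 22735 autosomal genes, which is 30.5% and 17.3% against 24.7% and 23.8%. The share of X-linked genes was chosen for display after values were seen.

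Markers of other cell types were examined in the aortic samples. Pericyte markers, many shared with smooth muscle, were higher in 11 of 12 cases. Adventitial fibroblast markers were higher in 12 of 13 and lower in 1, the latter by less than 2-fold. Among the higher were Dpt (6.27 ± 0.23), Lum (5.66 ± 0.52), Ly6a (3.67 ± 0.39), Cd34 (3.22 ± 0.40), Pdgfra (3.10 ± 0.47) and Pi16 (2.93 ± 0.30). The mean level of the list was 4.15 to 4.21 in the day 0 samples and 6.05, 7.19 and 7.01 in aortic samples 1, 2 and 3. Dpt itself was at 9.16, 10.11 and 9.62, lowest in sample 1, and differed by 6.51 without that sample. These markers moved with the collagen and proteoglycan genes, and their part in those results was not tested. Adipocyte markers were higher in 6 of 14 cases and lower in 1. The lipid carrier Fabp4 was at 2.41, 1.97 and 2.19 at day 0 and 9.61, 9.60 and 8.03 in the aorta (6.89 ± 0.33, adjusted p = 5.96e-11). The defining gene Adipoq, however, was at 2.36, 2.31 and 2.64 at day 0 and 2.41, 2.91 and 2.44 in the aorta (0.15 ± 0.16, adjusted p = 0.474).

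Endothelial markers were higher in 9 of 20 cases and lower in 2, with mean levels of 4.27 to 4.32 at day 0 and 4.93 to 5.31 in the aorta. Erg (4.55 ± 0.26), Esam (3.48 ± 0.19), Flt1 (2.23 ± 0.14), Cdh5 (2.18 ± 0.33) and Emcn (1.84 ± 0.19) were higher, Tek (-1.57 ± 0.31) and Mmrn2 (-0.96 ± 0.16) lower, and Pecam1 (-0.005 ± 0.23, adjusted p = 0.989), Vwf (0.11 ± 0.27, adjusted p = 0.764) and Cldn5 (-0.09 ± 0.16, adjusted p = 0.679) did not pass. Leukocyte markers were higher in 9 of 19 cases, 4 of them by at least 2-fold, and lower in 2. The 2 lower, both by at least 2-fold, were Laptm5, with the largest difference of the list, and Cd68. The common leukocyte antigen Ptprc was higher, at 2.41, 2.23 and 2.22 at day 0 and 3.71, 3.34 and 3.63 in the aorta (1.27 ± 0.12, adjusted p = 2.08e-07). Mean levels of that list were 4.05 to 4.06 and 4.21 to 4.63. Erythroid markers were higher in 2 of 6 cases, Schwann and neural markers in 1 of 15 (2 without day 0 sample 6 or aortic sample 3) with 5 lower (3 without day 0 sample 3), cardiac and skeletal muscle markers in 5 of 26 with 2 lower, mesothelial markers in 2 of 10 with 3 lower, and mesendoderm markers in 1 of 17 (2 without day 0 sample 3 or 6 or aortic sample 1) with 1 lower. Over all probe sets 23.3% were higher and 24.4% lower. The shares higher of the cardiac and skeletal muscle list (19.2%) and of the mesothelial list (20%) lay near the former. The values have no zero on this scale, and the part of such cells in the results was not tested.

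Immediate early genes and heat shock genes, which tissue dissociation and sorting are known to switch on, were higher in all 23 of 23 cases (median difference 2.86). The nuclear receptor Nr4a3 was at 2.51, 2.42 and 2.51 at day 0 and 8.74, 8.76 and 8.56 in the aorta, and the stress factor Atf3 at 6.00, 6.27 and 6.46 and 11.16, 11.14 and 11.06. All aortic samples were high and all day 0 samples low in both genes (6.21 ± 0.13, adjusted p = 2.38e-14 and 4.88 ± 0.16, adjusted p = 7.29e-13). Nr4a2 (5.11 ± 0.16), the mRNA decay factor Zfp36 (4.89 ± 0.14), the heat shock protein Hspa1a (4.57 ± 0.46) and Nr4a1 (4.42 ± 0.20) followed. The day 13 GFP+ cells had means of 3.21 for Nr4a3 and 5.88 for Atf3, near the day 0 means of 2.48 and 6.24. The part of dissociation and sorting in these levels was not tested. The immediate early and heat shock genes moved with the contractile, matrix and clock genes in the same samples, and their part in those differences was not tested.

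**Figure D5:**
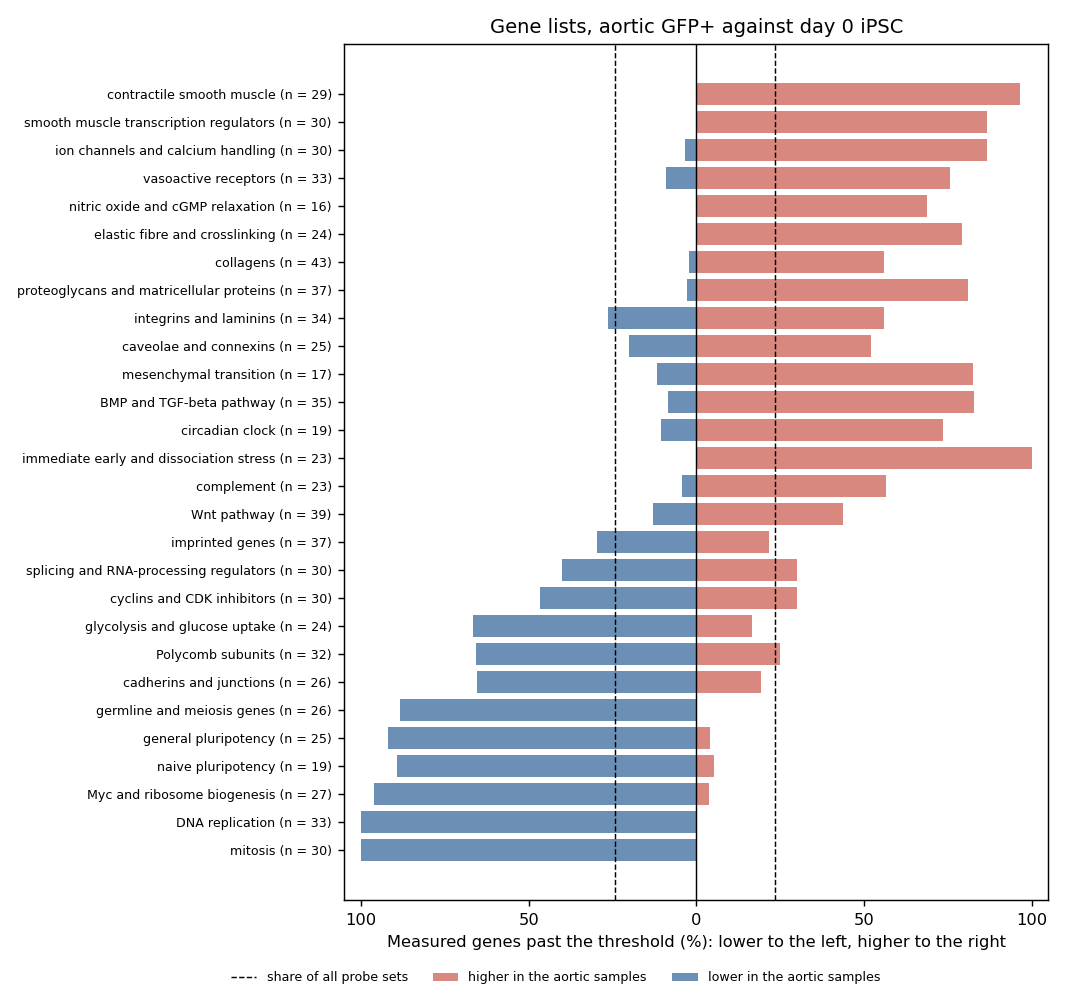
Share of the measured genes of 28 lists that passed an adjusted p of 0.05 (limma), higher in the aortic samples to the right and lower to the left, with the number of genes measured; dashed lines mark the shares over all probe sets (23.3% higher, 24.4% lower). Mitosis and replication genes reach 100% on the lower side and immediate early genes 100% on the higher side, while imprinted genes lie near the dashed lines.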

How the data were processed

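Per the submitters' processing notes the authors processed the arrays with RMA in affy 1.36.1 under R 2.15.1. The deposited values are log2 expression values per probe set on 15 arrays. That RMA normalizes arrays to a common distribution can hide a change in total RNA. The 25206 probe sets carry Entrez gene IDs, of which 23740 were named through RefSeq gene IDs and 1466 were not. A linear model with 1 mean per group was fitted to all 15 samples (limma 3.58.1, R 4.3.3; 10 residual and 5.09 prior degrees of freedom), with Benjamini-Hochberg adjustment over all probe sets and a threshold of 0.05. The fit was tested on simulated data. Array data have no read depth, and 3 samples per group limit the precision. Genes were named by rule: the 10 highest and 10 lowest named genes without overlap (clone, predicted, receptor-segment and olfactory genes left out), and from each list up to 6 with the largest difference, up to 3 against its direction, and members of families described one by one or defining a cell type. The comparison, lists and rule were chosen with earlier results of these data known. Alternatives were a fit of the 2 groups, array weights, eBayes with trend or robust, treat at a log2 change of 1, other scalings, a level filter, a replicate block and leaving out each sample.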

Additional observations from a re-analysis of the deposited data

How the results depend on the processing

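The number of probe sets past the threshold was 12023, with 5866 higher and 6157 lower in the aorta. It was 10819 to 12182 when 1 of the 6 samples was left out. Testing against a log2 change of 1 (treat) left 3993, with 1858 higher and 2135 lower, by its construction. Keeping probe sets above the median mean level left 3837 higher, from fewer tests. Median centring gave 5174 higher and 6504 lower. More were higher than lower after cyclic loess (5921 and 5737) and without aortic sample 1 (6156 and 6026). The day 0 and aortic samples share a single replicate number, 3, and the deviations of the samples so numbered correlated at 0.02. A single pair cannot settle whether the numbers pair the groups, and the labels state no pairing. A replicate block of cultures as a random effect gave 12031 calls and changed no call of a gene named here except that of Cxcl13. Of 372 genes named, 43 lost their call under at least 1 alternative, 31 of them under treat alone. Cdkn1a, not past the threshold at -0.17, was higher at 0.47 after cyclic loess. The cause was not tested. The array gives no signal over background, so calls of genes near the bottom of the scale cannot be graded by it.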

Other observations

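Several gene groups picked after their values were seen were lower in the aorta as groups, where 24.4% of all probe sets were lower. Cytosolic ribosomal protein genes were lower in 44 of 59 cases, mitochondrial ribosomal protein genes lower in 56 of 76, proteasome subunit genes in 31 of 38, and histone genes in 28 of 39. Small nucleolar RNA genes were lower in 79 of 106 cases, and without aortic sample 1 in 74. Their mean level was 5.83 in aortic sample 1, 7.28 in sample 2 and 7.04 in sample 3, against 8.05 to 8.37 at day 0.

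The nuclear factor I and flavin monooxygenase groups were also picked after their values were seen, and 23.3% of all probe sets were higher. All 4 nuclear factor I genes were higher in the aorta, Nfia by 5.22 ± 0.22, Nfib by 4.66 ± 0.27, Nfix by 3.45 ± 0.24 and Nfic by 2.50 ± 0.13. The nuclear factor I transcription factors act in many differentiating tissues. Flavin monooxygenase genes, which oxidise amines and sulfur compounds, were higher in 6 of 7 cases, with Fmo2 at 2.72, 2.46 and 2.93 at day 0, a day 13 GFP+ mean of 2.59 and 9.36, 8.92 and 9.15 in the aorta. The cytokine Il6 was at 1.57, 1.74 and 1.76 and 8.15, 9.10 and 7.67, and the vascular amine oxidase Aoc3 at 3.27, 3.35 and 3.09 and 9.91, 9.61 and 9.45. The Mir23a and Mir27a genes, relatives of Mir23b and Mir27b at another locus, were higher by 3.11 ± 0.30 and 3.29 ± 0.23.

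The aortic samples differed among themselves in immune genes. Ighg3, an antibody heavy chain gene, was at 7.15, 2.83 and 3.11 and the lymphoid chemokine Ccl19 at 3.89, 7.38 and 3.78, so that sample 1 was highest in the former and sample 2 in the latter. Cxcl13 was at 5.50, 8.23 and 4.35 and Ccl2 at 5.71, 8.39 and 6.11. The matrix protease Mmp3 was at 2.83, 6.53 and 6.45, lowest in sample 1. These genes were picked for their spread after values were seen.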
